A study of Gallus gallus with 2 samples.

Results

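Extraembryonic endoderm and area opaca cells were described in a multiome data set of whole chicken embryos at the gastrula stage HH5 of the Hamburger-Hamilton series. The members were all cells that the authors' annotation names extraembryonic endoderm (498 cells) or area opaca (151 cells), 649 of 7750 cells in all. The 10x Multiome assay measures RNA together with chromatin accessibility (ATAC) in each cell. Per the labels, 1 enzymatically dissociated preparation gave both libraries, with no treatment and no second stage. The sources used here give no strain, sex or number of embryos.

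The chick gastrula is a disc on the yolk. Its clear centre, the area pellucida, forms the embryo proper, and its outer ring, the area opaca, lies in contact with the yolk. The extraembryonic endoderm contributes to the yolk sac, which takes up and processes yolk for the embryo. The embryonic endoderm gives rise to the gut and its organs. The class names do not say which layer of the area opaca its cells came from.

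The table gave 3 measures per cell: a pair of coordinates in a weighted nearest neighbour UMAP, which places cells by how alike they are in RNA and ATAC together, and, for 6681 cells, an ATAC rank. None of the 498 extraembryonic endoderm cells and none of the 151 area opaca cells carried a rank. The third unranked class was the blood islands, the site of the first blood and vessel formation. What was ranked is not stated, and no meaning is given here to either end of the rank. Gene values were not analysed here, so the class names could not be checked against markers, and no gene is reported. With 1 preparation there was no replicate error and no test. All values are the authors' own or summaries over cells. The class column is named as holding clusters, so the separation of classes in the embedding may be built in.

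Extraembryonic endoderm outnumbered area opaca. It made up 6.43% of all cells (exact 95% binomial interval 5.89 to 6.99%), and area opaca made up 1.95% (1.65 to 2.28%). Of the cells of both classes together, 76.7% (73.3 to 79.9%) were extraembryonic endoderm. Of the 1069 cells without a rank, extraembryonic endoderm supplied 46.6% (43.6 to 49.6%) and area opaca 14.1% (12.1 to 16.4%). These intervals cover counting error only, and losses in dissociation and filtering can also set such shares. By size, extraembryonic endoderm was class 8 and area opaca class 14 of 16.

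Both classes lay at the far end of an island that stood apart from the rest of the embedding. Cells were linked when they lay within 0.3 of each other, in the units of the embedding. The linked piece then held 497 of 498 extraembryonic endoderm cells, all 151 area opaca cells, 434 of 440 embryonic endoderm cells, 111 of 114 notochord cells and 7 cells of other classes. It was not joined to the primitive streak, and it remained unjoined at linking distances of 0.5 and 1. The notochord, the rod of axial mesoderm under the neural plate, formed the opposite end of this island. The median first coordinate was 11.8 in extraembryonic endoderm and 11.8 in area opaca, against 3.97 in the notochord.

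The pair of classes shared their place on the first coordinate and differed on the second. The first coordinate had a median of 11.79 in extraembryonic endoderm (quartiles 10.57 and 12.22) and 11.79 in area opaca (11.63 and 11.93). The second coordinate had a median of -0.69 in extraembryonic endoderm (quartiles -0.91 and -0.42) and 1.21 in area opaca (0.92 and 1.44). The quartile ranges of the second coordinate were disjoint. In the whole range over cells, area opaca began at 0.22 on the second coordinate and extraembryonic endoderm reached up to 0.72, so the ranges met and overlapped there.

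Extraembryonic endoderm was a long, curved class and area opaca a short one. The middle 90% of extraembryonic endoderm cells spanned 9.86 to 12.53 on the first coordinate, and that of area opaca cells 11.28 to 12.08. The median position of extraembryonic endoderm lay 1.90 from that of area opaca, 3.92 from that of embryonic endoderm and 19.1 from that of blood islands. For area opaca the distance was 4.09 to embryonic endoderm and 18.5 to blood islands. Of the unranked classes, extraembryonic endoderm and area opaca therefore lay close together on the map, and blood islands lay far from both. Distances in such a map are not distances in the embryo. How unlike the classes are in RNA or ATAC was not measured, so these distances are not read as degrees of unlikeness.

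**Figure D1:**
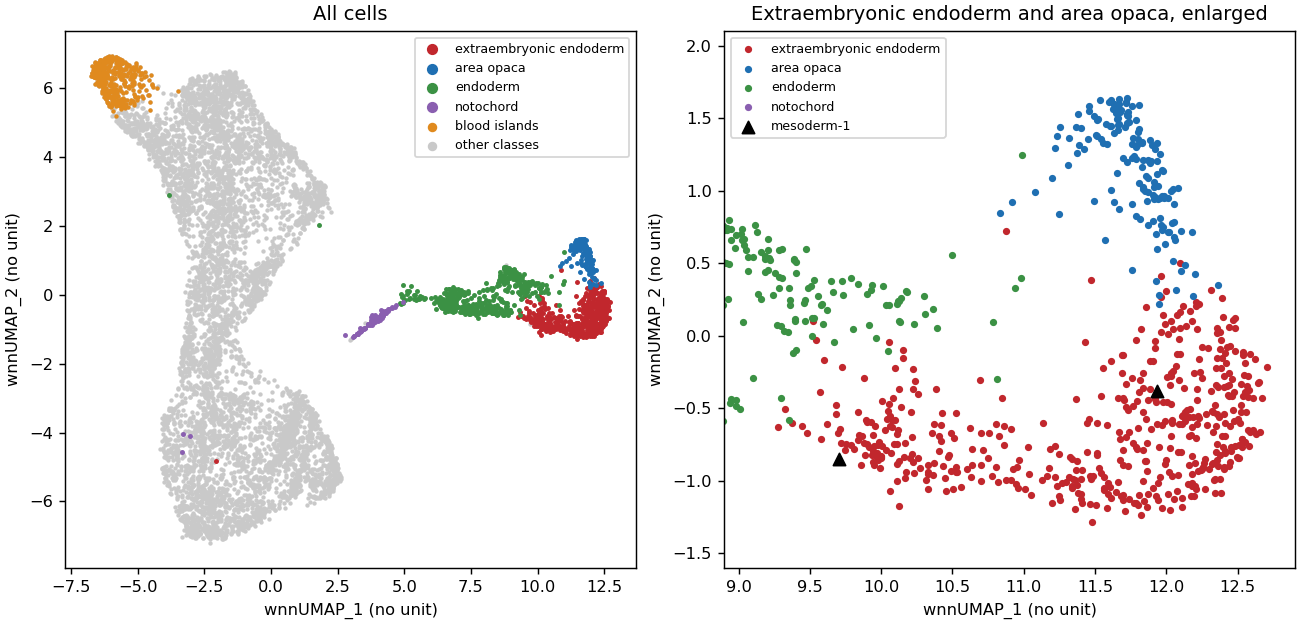
Cells on the first (x) and second (y) coordinates of the weighted nearest neighbour UMAP, with no unit; each point is 1 cell. Left, all 7750 cells; right, the enlarged region from a first coordinate of 8.9, where extraembryonic endoderm curves below area opaca, embryonic endoderm enters from the left and triangles mark 2 mesoderm-1 cells.

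Within extraembryonic endoderm, a thin limb towards embryonic endoderm led into a broad lobe. Of its cells, 117 (23.5%, interval 19.8 to 27.5%) had a first coordinate from 9 to 10.5, and 298 (59.8%, 55.4 to 64.2%) had one of 11.5 or more. Between 10.5 and 11 there were 36 cells, fewer than the 68 in the band before it and the 46 in the band after it. These 36 cells were also more widely spaced. The median distance to the 15th nearest cell was 0.217 there, against 0.162 from 10 to 10.5 and 0.173 from 11 to 11.5. The most populated band, from 12 to 12.5, held 160 cells with a median spacing of 0.141. Spacing was about as small from 9.5 to 10, in the limb (0.139), and from 12.5 to 13 (0.137). The words thin and broad describe the look of the map, and no width was measured.

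Area opaca formed an arch that rose as the first coordinate fell. Across its 151 cells, Spearman's rho between the coordinates was -0.62, against 0.26 across the 497 extraembryonic endoderm cells with a first coordinate of 9 or more. These correlations describe shape only. The 25 cells at the top of the arch, with a second coordinate of 1.5 or more, had a median spacing to the 15th nearest cell of 0.104. The 10 cells at its foot, below 0.5, had a median spacing of 0.236. Among the 16 classes, area opaca had the second smallest median spacing (0.140) and extraembryonic endoderm the fourth smallest (0.161). Spacing, too, describes the map only and was not set against the RNA or ATAC profiles.

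Most cells of both classes had only cells of their own class around them. Around each cell the 15 closest others in the embedding were taken. All 15 were of the same class for 432 of 498 extraembryonic endoderm cells (86.7%, interval 83.4 to 89.6%) and for 128 of 151 area opaca cells (84.8%, 78.0 to 90.1%). Fewer than 8 of 15 were of the same class for 12 extraembryonic endoderm cells (2.41%, 1.25 to 4.17%) and 6 area opaca cells (3.97%, 1.47 to 8.45%). Neighbouring cells share their nearest cells, whereas these intervals treat cells as independent. The intervals therefore do not measure a difference between the classes. High shares with all 15 of the same class were not particular to the members. They were 86.4% in embryonic endoderm, 84.0% in mesoderm-6, 82.1% in blood islands and 80.7% in the notochord. In the remaining classes they ran from 0% in mesoderm-3 to 76.5% in the primitive streak.

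The border between the classes was narrow. A cell was said to border another class when at least 1 of its 15 nearest cells belonged to it. Here and below, the intervals of border shares treat cells as independent, although neighbouring cells share their nearest cells. The limits given for counts of 0 do the same. Of the extraembryonic endoderm cells, 21 bordered area opaca (4.22%, interval 2.63 to 6.37%). Of the area opaca cells, 20 bordered extraembryonic endoderm (13.2%, 8.28 to 19.7%). The closest pair of cells across the border lay 0.0155 apart. The border counts depend on the number of nearest cells taken: with 50 in place of 15, the shares were 8.03% of extraembryonic endoderm and 22.5% of area opaca cells.

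The border ran mainly where the broad lobe of extraembryonic endoderm met the foot of the area opaca arch. The 21 extraembryonic endoderm cells had a median position of 12.08 on the first coordinate (quartiles 11.96 and 12.18) and 0.21 on the second (0.14 and 0.31). The 20 area opaca cells had a median position of 11.97 (11.71 and 12.11) and 0.50 (0.37 and 0.68). All 10 area opaca cells with a second coordinate below 0.5 bordered extraembryonic endoderm (interval 69.2 to 100%), and so did 10 of the 42 cells from 0.5 to 1 (23.8%, 12.1 to 39.5%). From 1 to 1.5 none of 74 cells did, and above that none of 25. These counts of 0 allow shares of up to 4.05% and 12.0%.

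Extraembryonic endoderm met embryonic endoderm and area opaca at different places. It had 22 cells that bordered embryonic endoderm (4.42%, interval 2.79 to 6.61%), with a median first coordinate of 9.80 (quartiles 9.53 and 10.21). Only 2 cells bordered both embryonic endoderm and area opaca. All 5 extraembryonic endoderm cells from 9 to 9.5 on the first coordinate bordered embryonic endoderm, then 7 of 44 from 9.5 to 10 (15.9%, 6.64 to 30.1%) and 6 of 68 from 10 to 10.5 (8.82%, 3.31 to 18.2%). At 11.5 or more none of 298 cells did, so that a share of up to 1.01% is allowed. Of these 298 cells, 19 bordered area opaca. None of the 117 cells from 9 to 10.5 bordered area opaca, which allows up to 2.56%.

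Area opaca also touched embryonic endoderm, through its sparse left side. Of its cells, 7 bordered embryonic endoderm (4.64%, interval 1.88 to 9.32%), all with a first coordinate between 10.83 and 11.25, and 4 of these 7 also bordered extraembryonic endoderm. The closest pair of an area opaca and an embryonic endoderm cell lay 0.230 apart, against 0.0242 for extraembryonic and embryonic endoderm. The median distance from an area opaca cell was 0.737 to the nearest extraembryonic endoderm cell and 0.830 to the nearest embryonic endoderm cell.

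**Figure D2:**
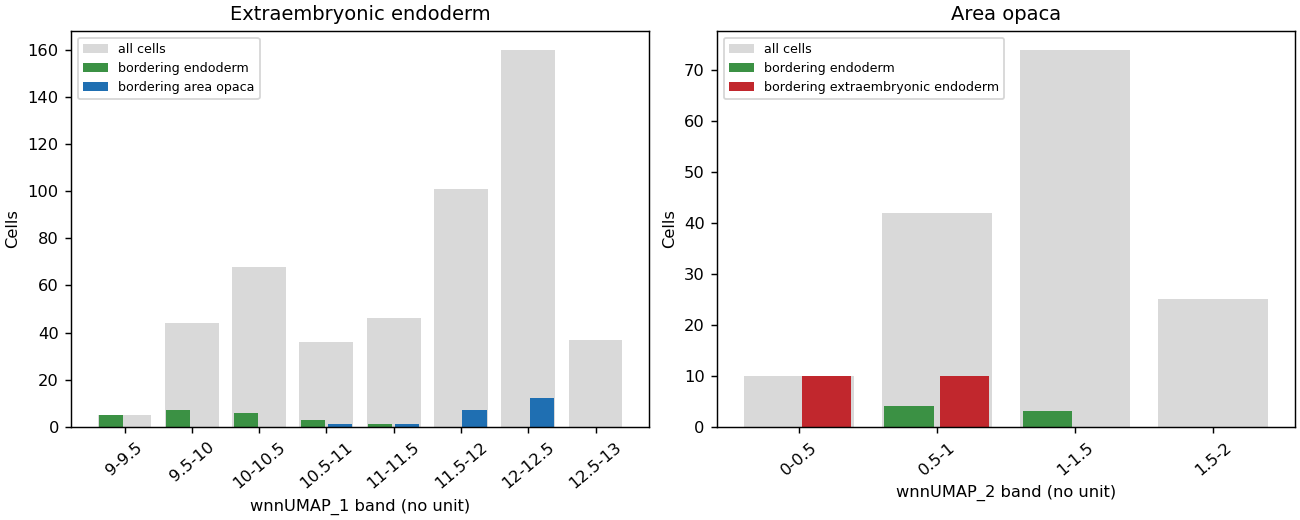
Number of cells (y) in bands of the first coordinate for extraembryonic endoderm (left) and of the second coordinate for area opaca (right); grey bars are all cells of the band and coloured bars those bordering another class, from 1 preparation. Border cells with embryonic endoderm lie at low first coordinates of extraembryonic endoderm, and those with area opaca mainly from 11.5 to 12.5, where 7 and 12 cells are counted.

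Single cells went against this arrangement. Of the extraembryonic endoderm cells, 1 lay outside the island, at -2.07 on the first coordinate and -4.83 on the second, and all 15 of its nearest cells were neural ectoderm-2, with a median rank of 1335. Conversely, 2 mesoderm-1 cells lay inside extraembryonic endoderm, each with 15 of 15 nearest cells of that class. Their ranks were 3604, at a first coordinate of 11.94, and 3211, at 9.70. Both were low for mesoderm-1, whose 783 cells centred on a rank of 4944 (median; quartiles 4302.5 and 5564.5). Of these 783 cells, 38 ranked at or below 3604 and 4 at or below 3211. Doublets were not called, and whether these cells are doublets was not tested.

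Because the members carried no rank, the embryonic endoderm cells nearest to them were used to see which ranks lie beside them. The 10 endoderm cells closest to a member lay 0.0242 to 0.114 away. In order of distance their ranks were 2409, 1636, 1674, 1747, 2278, 1993, 1874, 1174, 2751 and 2802. All 10 lay above the median of the class, whose 440 cells ran from 1 to 4899 with a median of 564.5 (quartiles 155.5 and 1783.75). All 10 also had a first coordinate of 9 or more. Only 1 of the 100 endoderm cells on that side ranked below 500, so low ranks were rare there in general.

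Within the endoderm class, ranks were higher close to the members and lower farther away. The 40 nearest endoderm cells, within 0.272 of a member, centred on a rank of 2058 (median; quartiles 1664.5 and 2521). The next 40 had a median of 2146 (1657 and 2667.25), and cells 81 to 120 by distance a median of 1861 (1137.25 and 2690). Cells 121 to 200 had a median of 1142 (673.75 and 2663), and the remaining 240, at 1.20 or more, a median of 179.5 (76.75 and 431.25). The step between the last pair of groups was the only one with disjoint quartile ranges. Across the 440 cells Spearman's rho between distance and rank was -0.65. Over the same cells rho with rank was 0.68 for the first coordinate, 0.57 for the second and -0.69 for distance to area opaca. Nearness to a member can therefore not be told apart from position along the endoderm class. The points share 1 library, and the embedding was itself built in part from ATAC profiles, so this is a description.

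No cell at the border had a very low rank. Of the 37 endoderm cells bordering extraembryonic endoderm, none ranked below 500, which allows a share of up to 8.11%, whereas 206 of all 440 endoderm cells did. Only 1 of these 206 had a first coordinate of 9 or more. Very low ranks were therefore rare on that whole side of the class, and their absence was not particular to the border. The lowest border cell ranked 667 and the highest 4557. At this border the median rank was 1993 (quartiles 1747 and 2308), against 523 (314 and 733) in the 13 endoderm cells bordering the notochord, at the other end of the class. The quartile ranges were disjoint.

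Among the endoderm cells on the members' side, the relation of rank to distance ran the other way for extraembryonic endoderm, but not for area opaca. Of the 100 endoderm cells with a first coordinate of 9 or more, the 37 border cells, with the median of 1993 given above, had the lower median. The 63 that did not border extraembryonic endoderm had a median of 2598 (1994 and 2970.5), which is a difference of -605. Over these 100 cells rho between distance to the nearest member and rank was 0.42, and over the 63 cells alone it was 0.34. Only 1 of all 440 endoderm cells lay closer to area opaca than to extraembryonic endoderm, so the nearest member was mostly of the latter class. Over the 100 cells rho was 0.44 with distance to extraembryonic endoderm and -0.14 with distance to area opaca. It was close to 0 (0.07) when distance was taken to the median position of extraembryonic endoderm. The quartile ranges of the groups overlapped.

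Border cells had the lower median rank in each of 3 bands of the first coordinate. From 9 to 9.5, the median rank was 1802 in 13 border cells (quartiles 1365 and 2123), against 2519 (1937 and 2967) in 41 other cells. From 9.5 to 10 it was 2049 (1719.25 and 2486) in 12 border cells and 2689 (1882 and 2909) in 11 others. From 10 to 11 it was 2143 (1966.75 and 2527.25) in 12 border cells and 2756 (2575.5 and 2933.5) in 11 others. The quartile ranges overlapped in the lower and middle bands and were disjoint in the upper one. In each band the border cells lay lower on the second coordinate, with medians of 0.03, 0.10 and 0.10, against 0.52, 0.35 and 0.26 in the others.

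Endoderm cells ranked above 3000 were few. Of the 37 cells bordering extraembryonic endoderm 1 ranked so high, against 21 of all 440 endoderm cells. On the members' side, at a first coordinate of 9 or more, 13 of 100 endoderm cells did, this 1 included. With 1 cell, no lack of high ranks at the border can be read. Of the 21 endoderm cells that ranked above 3000, 13 lay between 8.5 and 10 on the first coordinate at 0.3 or more on the second, a crest above the border region. The highest-ranked cells lay outside it. The cell ranked 4899 was far from the members, between 4.5 and 7 on the first coordinate, and the cell ranked 4557 was the 1 of the 21 that bordered extraembryonic endoderm. From 8.5 to 9 on the first coordinate, the 43 cells with a second coordinate above 0 centred on a rank of 1943 (median; quartiles 1159.5 and 2809.5). The 26 at or below 0 had a median of 982 (684.75 and 1284). Below 8.5 ranks were low, with medians of 465.5 from 8 to 8.5, 181.5 from 7 to 8 and 173 from 4.5 to 7. This region and its limits were chosen after the ranks had been seen. The number of all endoderm cells in the crest is not given, so no frequency of high ranks there can be read.

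**Figure D3:**
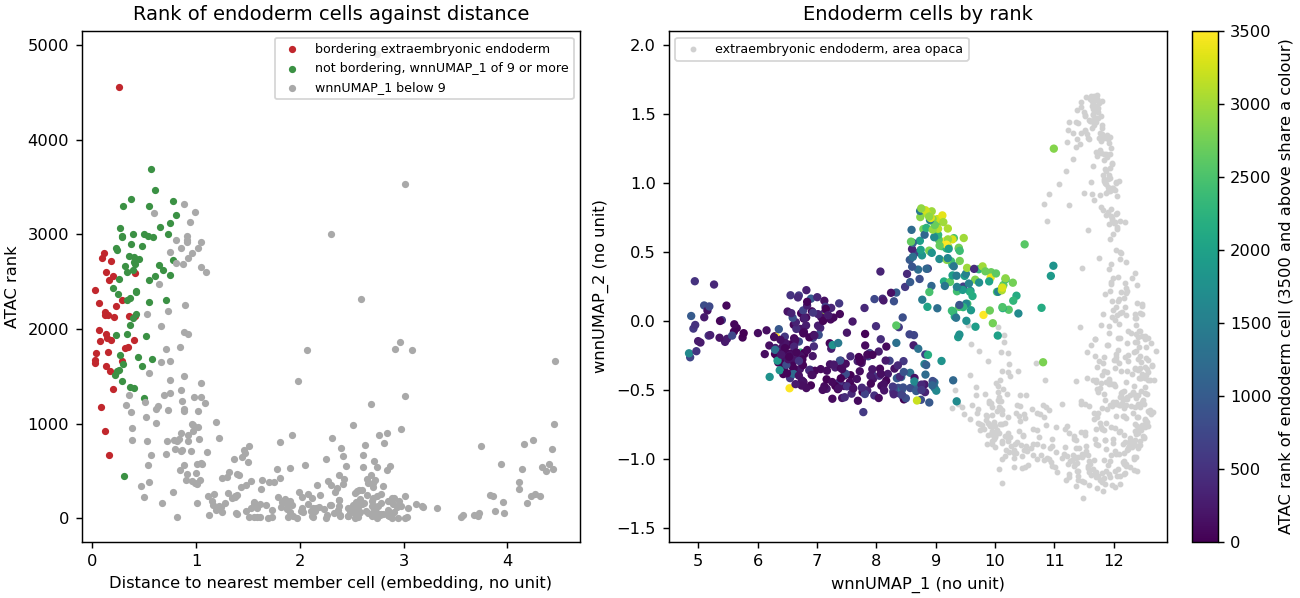
Left, ATAC rank (y) of embryonic endoderm cells against the distance to the nearest extraembryonic endoderm or area opaca cell (x, embedding, no unit), with 2 cells beyond 4.7 not drawn; right, the same cells on the embedding coloured by rank, with members in grey. Of the 240 farthest cells, 187 rank at 500 or below, with single cells up to 4899, and 13 of the 21 cells above 3000 lie in a crest above the cells at the border.

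**Figure D4:**
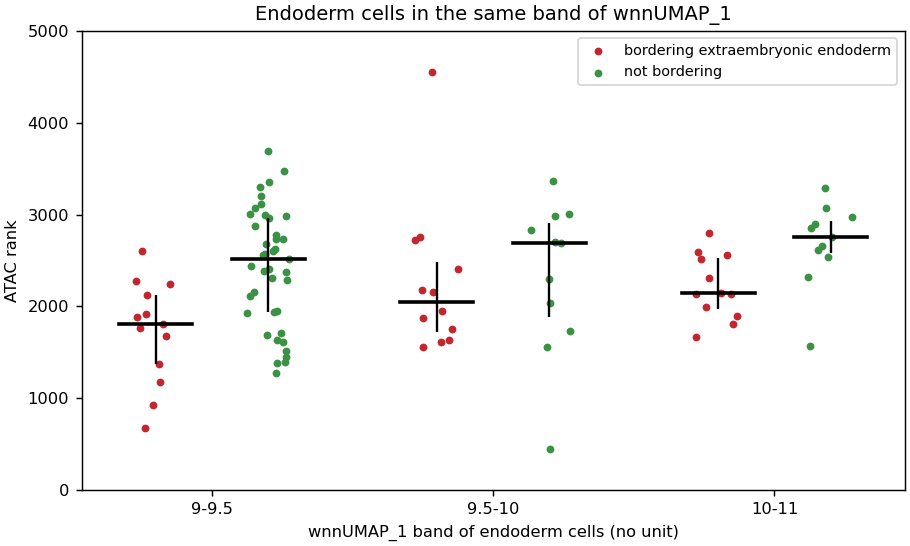
ATAC rank (y) of embryonic endoderm cells in 3 bands of the first coordinate (x, no unit), bordering extraembryonic endoderm or not; points are cells of 1 preparation, thick lines medians and thin lines quartiles. Border medians of 1802, 2049 and 2143 lie below those of the other cells, 2519, 2689 and 2756.

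Few embryonic endoderm cells lay beside area opaca. There were 4 such cells, and they ranked 2853, 2588, 1805 and 1888 in order of distance, from 0.230 to 0.533. All 4 ranked above the upper quartile of the class, 1783.75. Such ranks were common on that side of the class and were not particular to these 4 cells. Among endoderm cells with a first coordinate of 9 or more, the 37 bordering extraembryonic endoderm had a median of 1993. The 63 others had a median of 2598. The nearest of them, ranked 2853, had 15 of 15 nearest cells in area opaca and did not border extraembryonic endoderm. The other 3 bordered both classes and had 1, 6 and 3 nearest cells in area opaca. That nearest cell was also the only 1 of 440 endoderm cells that lay closer to area opaca than to extraembryonic endoderm. With 4 cells, no order of ranks between the borders can be read.

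Smaller shares of both classes than of blood islands lay beside ranked cells, a difference that was not tested. At least 1 of 15 nearest cells carried a rank for 47 extraembryonic endoderm cells (9.44%, interval 7.02 to 12.4%), 7 area opaca cells (4.64%, 1.88 to 9.32%) and 75 of 420 blood island cells (17.9%, 14.3 to 21.9%). Neighbouring cells share their nearest cells. The ranked cells nearest to these classes were only 13, 3 and 15 different cells, in the same order. The intervals treat cells as independent, so they do not measure a difference between the classes. The median distance to the nearest ranked cell gave another order: 0.528 in extraembryonic endoderm, 0.804 in area opaca and 0.710 in blood islands. For 322 and 76 of the 498 extraembryonic endoderm cells, that ranked cell was 1 of the 2 mesoderm-1 cells inside the class. In extraembryonic endoderm, 26 cells had 1 of the mesoderm-1 cells described above among their 15 nearest, and 22 had an endoderm cell. When these 2 mesoderm-1 cells were left out, 23 extraembryonic endoderm cells (4.62%, 2.95 to 6.85%) had a ranked cell among their 15 nearest, while the area opaca count was again 7. The mesoderm-1 cells ranked 3604 and 3211. The median was 1993 for the 37 endoderm cells at the extraembryonic endoderm border, against 5126.5 (quartiles 4585.75 and 5541.5) for the 38 mesoderm-4 cells bordering blood islands. The rank of mesoderm-4 as a whole is not given here, so a difference between the borders cannot be told apart from one between the classes.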

How the data were processed

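The authors deposited 1 table with a row per cell barcode of 1 HH5 preparation, 7750 barcodes with none repeated. Per the file headers, it holds 2 embedding coordinates and an ATAC rank, both treated as scores deposited by the authors, and a class name. The submitters' processing notes name Signac 1.8.0, Seurat 4.3.0, Cell Ranger ARC 2.0.0 and the build galGal6. Filters on cells, doublet removal and class naming are not given in these sources. Depth per cell is unknown, and no doublet caller was run.

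Members were taken by class name. Nearest cells were found by Euclidean distance on both coordinates. Shares have exact (Clopper-Pearson) 95% intervals, and the limit for a count of 0 is 3 counts of the total. Both cover counting error only and treat cells as independent. Ranks and positions are given as medians and quartiles over cells. Cells are not replicates, so no test was made. The members, bands and summaries were chosen with earlier results of these data known. All classes touching the members were to be named, and genes only where the table held gene values. Markers listed for naming cell types could not be used. The functions were tested on simulated data. Python 3.11.15, pandas 2.3.3, NumPy 2.4.6, SciPy 1.17.1 and matplotlib 3.10.9 were used.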

Additional observations from a re-analysis of the deposited data

How the results depend on the processing

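Of 75 recomputed values for 18 results, 50 stayed within a range set around the reported value. For shares and medians this was a 95% binomial interval, with own-class shares of nearest cells treated as counts of cells. For correlations it was 0.1 either way. For the rank difference of -605 it was -790 to -420, the width of the interval of the border median. The binomial intervals cover counting error, so a value within one can still depend on the setting. With 5 nearest cells, 1.99% of area opaca cells bordered endoderm, against 4.64%, and this counted as within. The 50 values included the shares of both classes and the median rank of endoderm cells bordering extraembryonic endoderm under every alternative tried for them. Of the others, 24 moved and 1 changed sign. With 30 nearest cells, 6.43% of extraembryonic endoderm cells bordered area opaca. With 50, the share was 8.03%, that bordering endoderm was 8.43%, that of area opaca bordering extraembryonic endoderm was 22.5%, and the median rank of endoderm cells off the border was 376. When at least 3 nearest cells were required, these shares were 2.01%, 2.21% and 7.28%, and 1.32% of area opaca cells bordered endoderm. Leaving out the 609 cells that had under 8 of 15 nearest cells of their own class gave 0.823%, 2.06%, 3.45% and 1.38%, because it removes border cells by construction. Own-class shares of nearest cells became 99.5% in extraembryonic endoderm and 98.7% in area opaca, and the rank difference became -262.5, with 9 border cells left. By means, extraembryonic endoderm lay at 11.44 and -0.64, endoderm cells off the border ranked 931, and the rank difference was -403. The relation of rank to distance to the nearest member was -0.52 by Pearson correlation and reversed to 0.42 over endoderm cells with a first coordinate of 9 or more. Over those cells it was 0.25 with the mean distance to the 15 nearest members and 0.0742 with the distance to the median position of extraembryonic endoderm; the cause was not tested. Without the 2 mesoderm-1 cells inside extraembryonic endoderm, 4.62% of its cells had a ranked cell nearby, against 9.44%. This alternative and those for the rank difference and for these 100 cells were chosen after seeing the data. No paired analysis was possible because both libraries came from 1 preparation and no groups were compared. Depth per cell was not analysed here.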
